A study of Mus musculus with 2 samples.

Results

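The centromere-side ends of the 19 mouse autosomes were examined as the regions whose start lies at most 5 Mb above the lowest start listed for the same chromosome, rows without an adjusted value included. This rule, which uses position alone, gave 1124 of the 23946 regions in the table, 4.82% of the autosomal regions. The data come from methylated DNA immunoprecipitation and sequencing (MeDIP-seq) of mouse embryonic stem (ES) cells with a tet-regulated, Flag-tagged Zscan4c transgene in the MC1 line of the 129S6/SvEvTac strain, cultured feeder-free with leukemia inhibitory factor. The group called Zscan4 induced grew without doxycycline and the group called Zscan4 repressed with 1.5 µg/ml of the drug. Each group is 1 library, and both carry the same transgene, so effects of the drug and of Zscan4 cannot be told apart and no value below has a replicate check. Whether the line is a single clone is not given in the sources used here, and DNA libraries hold no measure of how far the transgene was induced.

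Mouse chromosomes have the centromere at one tip, next to a telomere. Beside the centromere lie long arrays of satellite repeats that are packed as heterochromatin and rich in 5-methylcytosine (5mC), and the first unique sequence follows behind them. The assembly represents the tip by an unsequenced stretch. The lowest listed positions are those of the first listed regions behind it, which need not be the first mapped sequence. Below, tip stands for the side of the lowest listed start. Zscan4, a SCAN-domain zinc-finger protein of the 2-cell embryo that appears in short bursts in ES cells, is known from work on telomere elongation and on the opening of heterochromatin. An antibody against 5mC pulls down methylated fragments, and more methylated cytosines or deeper sequencing both raise a region's count.

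The induced library held 51169 counts over all listed regions and the repressed library 70219. The scaled ratio given below is the induced over the repressed count after each library was multiplied by 1 factor. It equals the raw ratio times 1.38. The factors equalise the totals over the regions with an adjusted value. The 14 rows without one, 5 of them in the ends, had no part in this. The scaled ratio carries a 95% exact Clopper-Pearson binomial interval that covers counting error only. PCR copies, which could not be told from separate molecules, make the interval too narrow. Ratios of an end against other regions are exact odds ratios with Fisher's exact test (two-sided). They do not depend on the scaling, and they compare the reads of 2 libraries, not the conditions. Fisher's test treats reads as independent. Its p-values and intervals allow neither for PCR copies nor for the extra spread between chromosomes given below. Positions are those of the mm9 table, and no gene or repeat annotation was assigned to them.

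Pooled over the 19 autosomes, the ends were more crowded with listed regions than the interior, and a few of their regions held very many counts. There were 11.8 listed regions per Mb in the ends, 11.6 in the distal 5 Mb of the autosomes and 9.52 in the interior. The crowding was not shared by all ends: 12 were denser than the rest of their chromosome and 7 were sparser. Outside chromosomes 7, 11 and 19, the other 16 ends averaged 9.40 regions per Mb. The median region of the ends was 1058 bp long against 1116 bp in the interior, and 46.7% against 44.2% were exactly 1000 bp. The mean count per region was 2.74 with Zscan4 induced and 3.56 with it repressed, compared with 2.06 and 2.85 in the interior. These means were carried by few regions: the median region of the ends held 1 induced and 2 repressed counts, the same medians as in the interior. In the ends, 10 regions (0.890%) reached 50 counts over both libraries, and they held 33.7% of the counts. Elsewhere on the autosomes 43 such regions (0.194%) held 3.24% of the counts.

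The ends also had a larger share of regions without a count than other autosomal sequence. No count in the repressed library was seen in 274 end regions (24.4%, 95% exact binomial interval over regions 21.9 to 27.0%), against 19.97% (19.4 to 20.5%) in all other autosomal regions. In the induced library 365 end regions had no count (32.5%, 29.7 to 35.3%), against 29.4% (28.8 to 30.0%). Both libraries had a count in 55.2% of the end regions (52.3 to 58.2%) and in 60.9% (60.3 to 61.6%) of the others. The shares without a repressed count and with a count in both had intervals separate from those of the other regions, while the intervals of the share without an induced count overlapped. Regions with counts in the induced library alone made up 12.3% of the ends (10.4 to 14.3%) and 9.64% of the rest (9.26 to 10.0%), again with separate intervals. Those with counts in the repressed library alone made up 20.4% (18.1 to 22.9%) and 19.1% (18.6 to 19.6%). All these intervals treat neighbouring regions of 1 library per group as independent, so their separation is no test of the conditions. The ends also had more regions with a summed count of 1 or 2, 34.3% against 29.5% in the rest. Whether the shares above follow from this was not tested. Outside the high-count loci defined below, the ends held 3.18 counts per kb of listed region and the rest of the autosomes 3.60.

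**Figure D1:**
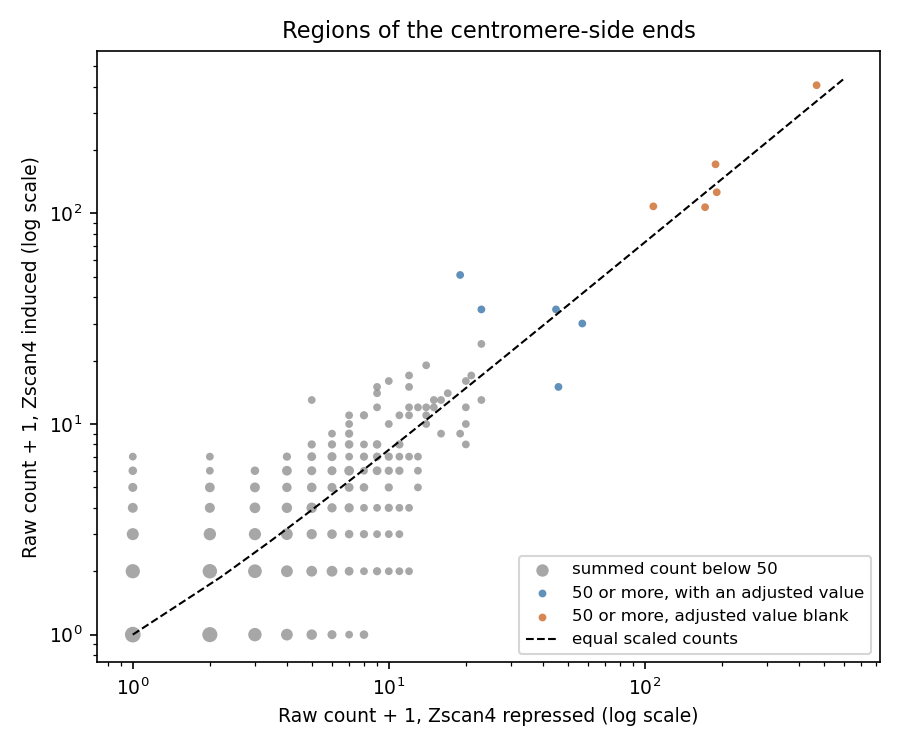
Raw count plus 1 in the repressed (x) and induced (y) library for the regions of the centromere-side ends, on log axes; a point can stand for several regions with the same counts and grows with their number. Most points lie near the origin, and the 5 regions without an adjusted value lie at the upper right, near the dashed line of equal scaled counts.

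Summed over all 1124 regions, the ends held 3076 induced and 3998 repressed counts. The scaled ratio was 1.06 (1.01 to 1.11), against 0.999 (0.987 to 1.01) in the 22215 other autosomal regions. The ratio of the ends was thus 1.06 times that of the rest (1.01 to 1.11, Fisher's exact p = 0.0183). The call ended when any of the following loci or chromosomes was left out, and it stayed without any other single one. Without the chromosome 7 locus of R19016 and R19017 it was 1.04 times (0.990 to 1.10, exact p = 0.115), and without the chromosome 11 locus of R02755 it was 1.05 times (0.997 to 1.10, exact p = 0.0621). Without all of chromosome 7 or of chromosome 19 the exact p was 0.0920 and 0.0683, at 1.05 times each. With all high-count loci left out of the ends and of the rest, 1944 induced and 2601 repressed counts remained, and the ends were 1.03 times the rest (0.973 to 1.10, exact p = 0.283). The distal 5 Mb of the same chromosomes, with 2910 and 3869 counts, had a scaled ratio of 1.04 (0.987 to 1.09). The centromere-side ends were 1.02 times the distal ends (0.956 to 1.09, exact p = 0.514), so no difference between the 2 kinds of end was detectable at this depth.

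The high-count regions gathered in 7 loci, a locus being these regions joined with any other region within 100 kb. Of the 10 regions, 6 lay within 100 kb of the lowest start of their chromosome. Those 6 sit on chromosomes 11, 14, 16 and 18. They held 713 induced and 974 repressed counts, a scaled ratio of 1.01 (0.914 to 1.11). The other 4, on chromosomes 7, 11 and 19, held 361 and 335 counts, a scaled ratio of 1.48 (1.28 to 1.73). This division by distance was chosen after the values were seen and has no test. All 10 together were 1.03 times the 43 high-count regions elsewhere on the autosomes (0.923 to 1.14, exact p = 0.632).

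The tip of chromosome 11 held the highest count of the whole table. R02654 (3092559 to 3094077), 69.2 kb from the outermost region, had 405 induced and 468 repressed counts and a scaled ratio of 1.19 (1.04 to 1.36). On unscaled counts its ratio was below 1. Of the 3 listed regions toward the centromere, 2 had scaled ratios below 1. R02653 (3067389 to 3068432), with 14 and 45 counts, had a ratio of 0.428 (0.217 to 0.795), and R02652 (3046802 to 3048089), with 29 and 56, one of 0.713 (0.439 to 1.14). The interval of R02653 lay below that of R02654, while that of R02652 overlapped it. The outermost region of the chromosome, R02651 (3023366 to 3024366), had 12 and 15, a ratio of 1.10 (0.471 to 2.52). In the test of every region below, none of the 4 passed (adjusted exact binomial p = 1 for each). The locus of 8 regions summed to 461 and 588 counts, 14.8% of all counts of the 19 ends and 61.1% of those of the chromosome 11 end, and its ratio of 1.08 (0.954 to 1.22) did not differ from 1 beyond counting error.

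Chromosomes 16 and 18 each had a single high-count region close to the tip, and both had scaled ratios below 1. R08311 on chromosome 16 (3349892 to 3351627), 85.5 kb in, held 106 and 171 counts, a scaled ratio of 0.854 (0.664 to 1.09). R10254 on chromosome 18 (3005258 to 3006339), 5.37 kb in, held 125 and 190, a ratio of 0.906 (0.717 to 1.14). Both intervals include 1. R10254 alone made up 68.6% of the counts of its chromosome end, and R08311 51.5%. On chromosome 14 the outermost region itself was the high-count one: R06447 (6036030 to 6037030) had 34 and 44 counts and a ratio of 1.06 (0.660 to 1.70). It stands alone, with 2604 kb to the next listed region. The list of this chromosome also starts farther in than on the 18 others, whose lowest starts lie between 2999886 on chromosome 18 and 3348348 on chromosome 3.

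Farther from the tip, the high-count regions had scaled ratios above 1. Without scaling, the ratio of R19017 turned below 1 and R19016 showed no difference. Only R02755 passed the test of every region below. On chromosome 7, R19016 (7230473 to 7231477) held 107 counts in each library, a scaled ratio of 1.38 (1.04 to 1.82). R19017 (7251419 to 7253370), the next region, held 170 and 188, a ratio of 1.25 (1.01 to 1.54). The pair lies over 4 Mb from the outermost region, holds 63.8% of the counts of its chromosome end and had a joint ratio of 1.29 (1.09 to 1.53). Both lack an adjusted value, as do R02654, R08311 and R10254. On chromosome 19, R11002 (4828025 to 4829812) had 34 and 22 counts and a ratio of 2.13 (1.21 to 3.82), and the 11 regions around it 21 and 29, a ratio of 0.997 (0.541 to 1.81). On chromosome 11, R02755 (6312287 to 6313287) had 50 and 18 and a ratio of 3.83 (2.19 to 6.97). The 13 regions around R02755 had 22 and 29 counts and a ratio of 1.04 (0.572 to 1.88), with an interval below that of R02755.

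**Figure D2:**
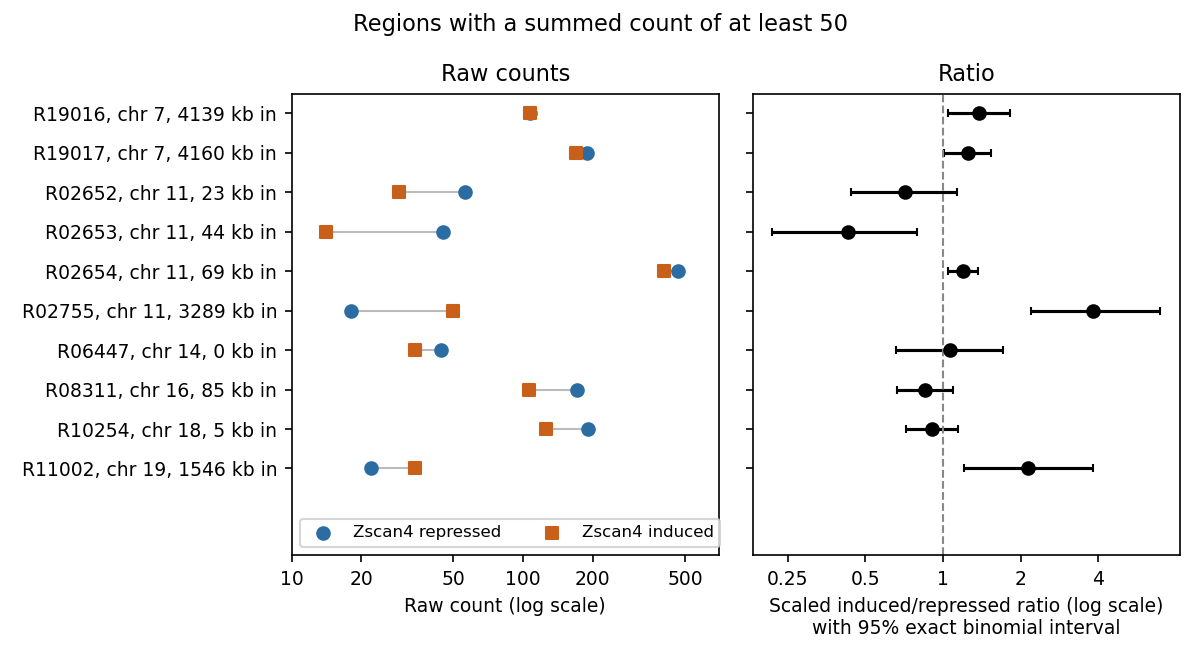
The 10 end regions with 50 or more counts, named with their chromosome and distance from the outermost region: raw counts in both libraries (left, log axis) and scaled induced/repressed ratio with its 95% exact binomial interval (right, log axis). The intervals of R02755, R11002, R02654, R19016 and R19017 lie above 1 and that of R02653 below it; R02654 has the most counts, 405 and 468.

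Few single regions of the ends stood out from counting error. At a 2-fold threshold on the log2 ratio of scaled counts with a pseudocount of 1, 170 of the 1124 end regions were lower in the induced library (15.1%, against a background of 15.6% over all regions). Another 184 were higher (16.4%, against 15.7%). Both shares lay near the background. Without scaling the numbers were 336 lower and 165 higher, against 31.5% and 13.99% over all regions. With the factors of the scaled ratio a lone induced count passes the threshold and a lone repressed count does not. Without scaling both pass. Among the 354 end regions with 5 or more counts, 63 were lower (17.8%, against 17.5%) and 39 higher (11.02%, against 11.7%). An exact two-sided binomial test of each region against the share of all scaled regions, adjusted by Benjamini-Hochberg over the 21323 regions with a count, called 1 end region higher, R02755 (adjusted p = 0.00373), and 0 lower, against 3 higher (0.0141%) and 0 lower (0%) over the table. At an unadjusted exact p under 0.05 there were 16 higher and 7 lower end regions, against 1.36% and 0.858% of all regions with a count. Scaling by the median of ratios, or leaving the counts unscaled, ended the call of R02755.

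Of the 1124 regions, 36 reached 20 counts over both libraries, and 31 of those had an adjusted value. Of the 31, 22 (71.0%) had more and 9 less scaled signal with Zscan4 induced, against 57.5% with more among the 617 such regions of the whole table. This split hangs on the scaling: 18 of the 31 had more under TMM (47.5% over the table), 13 under the median of ratios (36.1%) and 9 without scaling (23.8%). A total of 5 of the 36 were higher by 2-fold or more (background 6.81%) and 1 was lower (4.75%). Besides R02755 and R11002 (log2 ratios of 1.87 and 1.05), the 5 highest log2 ratios included R11068 on chromosome 19 (6290035 to 6292103), with 14 and 8 counts and a log2 ratio of 1.16, R14705 on chromosome 4 (5574659 to 5576648), with 15 and 9 counts and 1.10, and R10974 on chromosome 19 (3912151 to 3914172), with 13 and 8 counts and 1.06. The intervals of these 3 regions included a scaled ratio of 1. The lowest after R02653 was R11069 on chromosome 19 (6296170 to 6297953), with 7 and 19 counts and a log2 ratio of −0.90. It lies next to R11068 in the list, and the 2 neighbours had opposite signs with intervals of the scaled ratio that overlapped (0.943 to 6.63 and 0.180 to 1.26). R02738 on chromosome 11 (5899069 to 5900959) held 8 and 18 counts (−0.65), and R17738 on chromosome 6 held 9 and 19 (−0.57). R02652 was the remaining one of the 5 lowest, at −0.48.

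The region with the lowest start of each autosome showed no common direction. Together these 19 regions held 89 induced and 130 repressed counts, a scaled ratio of 0.943 (0.712 to 1.24), and their median summed count was 5. Besides R06447 and R02651, the best covered were R17738 on chromosome 6 (3133281 to 3134281), R14686 on chromosome 4 (3179385 to 3180385), with 11 and 8 counts, R05333 on chromosome 13 (3035782 to 3036874), with 6 and 7, R10253 on chromosome 18 (2999886 to 3000886), with 2 and 10, and R07352 on chromosome 15 (3134634 to 3135634), with 5 and 5. R10253 lies beside the high-count R10254, and its scaled ratio was 0.275 (0.0293 to 1.29). The others held few counts. R22090 on chromosome 9 held 1 and 5 counts, R11709 on chromosome 2 held 2 and 4, R09117 on chromosome 17 held 2 and 3, and R10960 on chromosome 19 held 0 and 4. R13472 on chromosome 3 and R16274 on chromosome 5 each held 1 and 1, R20504 on chromosome 8 held 2 and 0, and R18928 on chromosome 7 held 0 and 2. R00001 on chromosome 1 had a single induced count, R04446 on chromosome 12 and R08310 on chromosome 16 a single repressed count, and R01409 on chromosome 10 none in either library. The outermost region thus ranged from 0 counts on chromosome 10 to 78 on chromosome 14.

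Compared chromosome by chromosome, no end differed from the rest of its chromosome after adjustment over the 19 comparisons (2 had an unadjusted Fisher's exact p under 0.05). The point estimate lay above the rest of the chromosome in 12 ends and below it in 7. The largest departure was on chromosome 4, whose 37 end regions held 77 induced and 63 repressed counts. It was 1.65 times the rest of chromosome 4 (1.16 to 2.34, exact p = 0.00434, adjusted p = 0.0825). No single region carried it, since the best covered one, R14705, held 17.1% of the counts. Against all other autosomal regions in place of its own chromosome it was 1.68 times (adjusted exact p = 0.0492). Chromosome 1, with 64 and 61 counts, was 1.43 times its rest (0.988 to 2.08, adjusted exact p = 0.345). These were the 2 ends in which the raw count was higher in the induced library.

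The ends with the most counts were those of chromosomes 11, 19 and 7, which together hold 372 of the 1124 regions and 50.4% of the counts. Chromosome 19 was the densest, with 151 regions (30.2 per Mb, against 11.3 in the rest of the chromosome). Its 428 and 522 counts gave 1.13 times the ratio of its rest (0.975 to 1.32). Chromosome 11 had 131 regions (26.2 per Mb against 14.6), with 747 and 969 counts and 1.06 times its rest (0.952 to 1.18). Chromosome 7 had 90 regions (18 per Mb against 10.3), with 413 and 483 counts and 1.15 times its rest (1.00 to 1.33, exact p = 0.0458, adjusted p = 0.345). Without regions of 50 or more counts the values for chromosomes 7 and 11 fell to 0.977 and 0.895 times the rest, on the other side of 1. The remaining 16 ends averaged 9.40 regions per Mb. The interior of all autosomes averaged 9.52, but that value includes chromosomes 7, 11 and 19.

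Lower point estimates were found on chromosome 6, with 73 and 124 counts (0.811 times its rest, 0.595 to 1.10), on chromosome 3, with 36 and 65 (0.818, 0.527 to 1.25), and on chromosome 16, with 210 and 328 (0.911, 0.752 to 1.10). All 3 intervals include 1. On chromosome 3 the best covered region, R13507 (8245936 to 8246948), held 12 and 22 counts, 33.7% of its end. Chromosome 2, with 50 and 71 counts, was at 0.953 times its rest, and chromosome 13, with 72 and 101, at 0.984. The end of chromosome 5 was the emptiest: its 29 regions held 17 and 24 counts, 12 of them none at all, and the interval of 0.489 to 1.89 leaves room for a change in either direction. Chromosome 10, with 102 and 135 counts, stood at 0.994 times its rest, chromosome 9, with 89 and 128, at 1.00, and chromosome 15, with 74 and 101, at 1.01. These 3 lay closest to their own chromosomes.

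The ends not yet named lay slightly above their chromosomes. Chromosome 14, with 88 and 106 counts in 29 regions, was at 1.20 times its rest (0.886 to 1.62), and chromosome 8, with 92 and 115, at 1.08 (0.811 to 1.44). Chromosome 12, with 108 and 146 counts, was at 1.07 (0.822 to 1.40). Each of these intervals includes 1. Chromosome 17, with 145 and 188 counts, was at 1.03 times its rest (0.821 to 1.30), and chromosome 18, with 191 and 268, at 1.03 (0.835 to 1.26). The chromosome 17 end had 42 regions, fewer per Mb than its rest (8.40 against 12.5), yet more counts per region, 7.93, than any other end without a high-count region. The spread of the 19 ends around a common share was 1.47 times the binomial variance, and 1.30 times without regions of 50 or more counts. For the remainders of the same chromosomes it was 1.30 and 1.35 times.

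**Figure D3:**
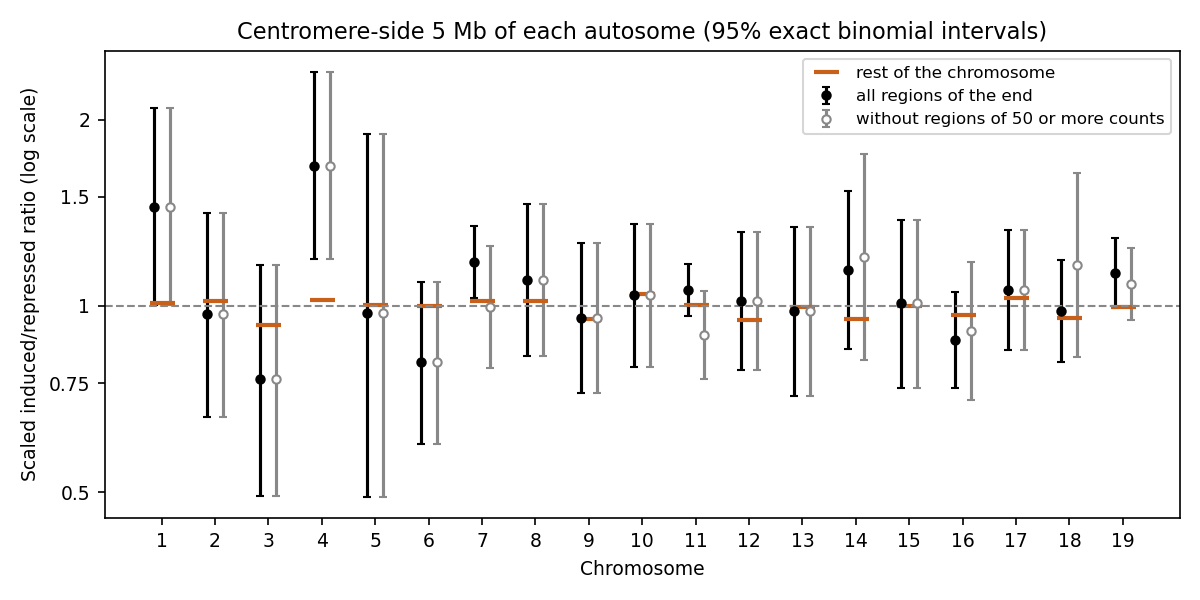
Scaled induced/repressed ratio (log axis) of the centromere-side 5 Mb of each autosome with 95% exact binomial intervals, for all regions (filled) and without regions of 50 or more counts (open), and of the rest of the chromosome (bars). Chromosome 4 lies highest, at 1.68, and chromosome 3 lowest, at 0.763; the ends of chromosomes 7 and 11 move below 1 without their high-count regions.

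In steps of 1 Mb from the outermost region, the listed regions thinned out with distance. The first step begins at a listed region by definition, so it cannot be empty, while later steps can. The first step held 293 regions (15.4 per Mb), the next 269 (14.2), then 220 (11.6), 191 (10.1) and 151 (7.95). The first Mb held more regions than the fifth on 13 chromosomes, fewer on 5 and as many on 1. Without chromosomes 7, 11 and 19 the decline was smaller and ended in the fourth step, with 12.6, 10.3, 9.31, 7.00 and 7.81 regions per Mb. Chromosome 2 had no region in the fifth step, chromosome 7 none in the third and chromosome 14 none in the second.

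The 5mC ratio did not fall or rise steadily with distance. In the first Mb the ends held 1215 induced and 1681 repressed counts, 0.996 times the ratio of the other autosomal regions (0.924 to 1.07). The 6 high-count regions there made up 58.3% of these counts. In the second step 492 and 633 counts gave 1.07 times (0.950 to 1.21), and in the third 391 and 527 gave 1.02 times (0.894 to 1.17). The fourth step, with 424 and 486 counts, was higher, at 1.20 times (1.05 to 1.37, Fisher's exact p = 0.00629, Benjamini-Hochberg adjusted p = 0.0315 over 5 steps). The fifth, with 554 and 671 counts, was at 1.14 times (1.01 to 1.28, adjusted exact p = 0.0674). The high-count regions in these steps were R02755 in the fourth and the chromosome 7 pair in the fifth, and each had a scaled ratio above 1. Without regions of 50 or more counts, in the ends and in the rest, no step passed: the fourth stood at 1.10 times, and the smallest adjusted exact p was 0.804. The scaled ratios of the steps then lay between 0.978 (0.870 to 1.10) in the first and 1.10 (0.958 to 1.26) in the fourth, with intervals that all include 1 and overlap each other.

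**Figure D4:**
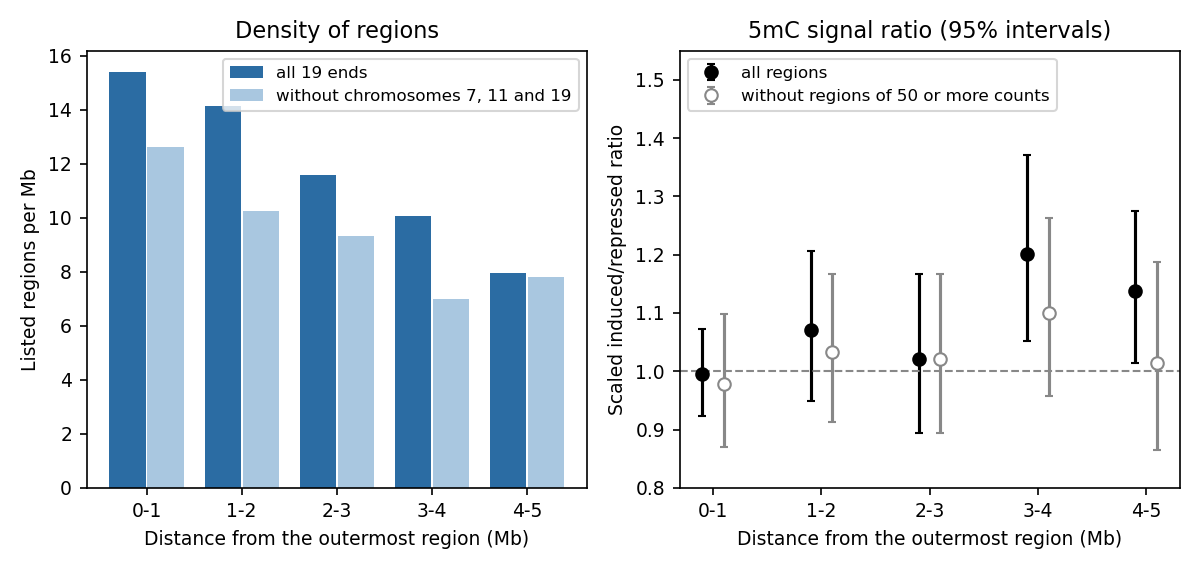
Listed regions per Mb by distance from the outermost region (left, bars from 0) and scaled induced/repressed ratio with 95% exact binomial intervals (right), with and without regions of 50 or more counts. Density falls from 15.4 to 7.95 regions per Mb, and the ratio of the fourth step moves from 1.20 to 1.10 without R02755.

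By summed count, the ratios of the end regions had intervals that overlapped between all classes. Regions with 20 to 49 counts numbered 26 and held 319 induced and 375 repressed counts, a scaled ratio of 1.17 (1.01 to 1.36), and the 10 with 50 or more had 1.13 (1.04 to 1.23). The 88 regions with 10 to 19 counts had 1.06 (0.939 to 1.19), the 479 with 3 to 9 had 0.969 (0.891 to 1.05), and the 385 with 1 or 2 had 1.02 (0.864 to 1.21). Elsewhere on the autosomes the ratio was 1.08 (1.05 to 1.12) at 20 to 49 counts and 1.10 (1.03 to 1.18) at 50 or more. It was 0.990 (0.968 to 1.01) at 10 to 19 counts and 0.990 (0.973 to 1.01) at 3 to 9. At 1 or 2 counts it was 0.926 (0.889 to 0.964), with an interval below those of the other classes. Length was looked at on a smaller set and was not compared with the count classes. Without regions of 50 or more counts, the ratio was 1.04 (0.946 to 1.15) in the 523 end regions of exactly 1000 bp, 1.00 (0.929 to 1.08) in the 537 of intermediate length and 1.11 (0.889 to 1.38) in the 54 of 2000 bp or more, with intervals that overlap.

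The innermost region inside the 5 Mb limit, 1 per chromosome, lay between 3.31 and 4.98 Mb from the outermost region and had a median summed count of 2. The first region outside lay between 5.02 and 8.50 Mb and had a median of 3. The chromosome 7 region R19017, with 358 counts, was the innermost one of its end.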

How the data were processed

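MeDIP-seq libraries, 1 per group, were read on the Illumina Genome Analyzer II per the labels' protocols, with genome build mm9 per the submitters' processing notes. Aligner, region caller and duplicate handling: not given in the sources used here. Raw whole-number counts per region were deposited by the authors. The adjusted signal, also deposited, equals the count times 1.19 (induced) or 0.863 (repressed) to within 0.0491 and is blank in 14 rows. Of the end regions, 42 overlap the one before, so reads may be counted in both.

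Summed counts were compared by exact odds ratios and Fisher's exact test, and single regions by log2 ratios (pseudocount 1, 2-fold) and an exact binomial test over the whole table, at a threshold of 0.05. A single library per group leaves 0 residual degrees of freedom, and edgeR's test was not fitted. The members, lists and tests were chosen with earlier results of these data known. Regions named are those without an adjusted value, those with 50 or more counts, the 5 highest and 5 lowest log2 ratios among those with an adjusted value and at least 20 counts, and the outermost of each autosome. R13507 was named after its values were seen. Alternatives covered extent, blank rows, overlaps, low counts, scaling (edgeR 4.0.16 TMM, DESeq2 1.42.0 median of ratios, none), pseudocount and fold. The Fisher and binomial scripts were tested on simulated counts drawn with binomial error alone. Changed regions were simulated only at 20 or more summed counts. How the tests behave with extra spread or at lower counts was not tested. Python 3.11.15, scipy 1.17.1 and R 4.3.3 were used.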

Additional observations from a re-analysis of the deposited data

How the results depend on the processing

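The value of 1.06 for the ends against the rest no longer passed the threshold at 3 Mb (1.01), at 10 Mb (1.02), without rows with blank adjusted values (1.04), at 20 or more counts (1.05), without chromosome 7 (1.05), without chromosome 19 (1.05), and, in alternatives added after seeing the data, without the locus of R02755 (1.05) or of R19017 (1.04). It turned to 0.992 within 1 Mb. It stayed past the threshold in the other 26 alternatives. Of the 19 chromosome ends, 0 passed, and 1 passed (chromosome 4) against all other autosomal regions. Measured so, chromosome 9 moved to 0.958, chromosome 10 to 1.04 and chromosome 18 to 0.982, across 1 from their values against their own chromosomes. Chromosome 7 moved to 0.977 and chromosome 11 to 0.937 without blank rows, and to 0.977 and 0.895 without regions of 50 or more counts. The number of 1 Mb steps called moved from 1 to 0 without regions of 50 or more counts. The end regions lower at the fold threshold numbered 336 without scaling and those higher 165 (31.5% and 13.99% over all regions). The pseudocount of 0.5 gave 286 lower and 234 higher regions (24.9% and 20.04% over all), that of 5 gave 8 and 7 (0.827% and 0.593%). The threshold of 1.5-fold gave 335 lower and 286 higher (31.4% and 24.9% over all), that of 3-fold 60 and 66 (5.63% and 5.48%), and a minimum of 5 counts 63 and 39 (17.5% and 11.7%). The exact binomial test called 0 end regions under the median of ratios and 0 on unscaled counts. The share called over all regions was not computed for these scalings. Some regions near no change turned negative in log2 ratio. Under TMM R06447 stood at −0.0485. Under the median of ratios R02651 stood at −0.12, R02654 at −0.0159, R05333 at −0.0258 and R06447 at −0.17. Without scaling R02651 stood at −0.30, R02654 at −0.21, R05333 at −0.19, R06447 at −0.36 and R19017 at −0.14. In log2 units the scaling moved by −0.14 under TMM, −0.27 under the median of ratios and −0.46 without scaling, the factors being computed on the regions with an adjusted value, so without the blank rows. The cause of these changes was not tested. No paired analysis was possible because each group has 1 library. For the same reason no library could be left out. Depth limits single regions, the median end region having 3 counts over both libraries.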
